A study of Homo sapiens with 6 samples.

Results

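GALK1 and 5 other genes of galactose and UDP-sugar metabolism, GALK2, GALT, GALM, UGP2 and PGM1, were followed in K562 cells after knockdown of PCBP1. The 6 genes were picked out of 62252 annotated genes because GALK1 fell strongly in these same libraries and because the others stand beside it in the pathway. The fall of GALK1 is therefore described below without a test. The other genes were chosen by function, but with earlier results of these data known, and are given with their tests. The annotation assigned 110 of 251612 matched transcripts to the 6 genes, and 5 of the 6 had enough counts to be tested.

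Poly-A RNA was sequenced from K562, an erythroleukemia line, after lentiviral transduction and 4 days of puromycin selection. The shCtrl cells expressed a short hairpin RNA (shRNA) against luciferase, and the shPCBP1 cells expressed one against PCBP1, an iron chaperone that also binds C-rich stretches of RNA. There were 3 libraries per group, and a single hairpin stood for the KD, so an effect of the hairpin itself and loss of PCBP1 cannot be told apart. Nothing in the labels says that replicates came from separate cultures, so p-values measure the spread between these libraries, which may be technical.

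Free galactose enters metabolism by the Leloir pathway. GALM, a mutarotase, converts the beta to the alpha anomer of galactose, GALK1 phosphorylates it, and GALT exchanges the phosphorylated galactose for the glucose of UDP-glucose. UGP2 makes UDP-glucose from glucose phosphate, PGM1 links that pool to glycolysis, and GALK2, the relative of GALK1, acts mainly on N-acetylgalactosamine. Inherited loss of GALK1 or GALT causes galactosemia, in which galactose or its phosphate accumulates.

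PCBP1 recognizes runs of C, and the stretch of an intron just before its 3' splice site is one place where such runs occur. The 7 introns of GALK1-205, the main coding transcript of GALK1 in these cells, were therefore read from the reference genome (hg38, chromosome 17, minus strand). The last 30 bases of 6 of these introns are shown 5' to 3', ending at the splice site, with runs of 3 or more C in capitals.
Intron 1, chr17:75764087-75764116: gcctcacgtactgcttgtctctcctgccag
Intron 2, chr17:75763440-75763469: tcttaccatcacctgttctttCCCCtgcag
Intron 3, chr17:75763150-75763179: ctagcctCCCCacctcaCCCtgtactgcag
Intron 4, chr17:75762886-75762915: gtcatctCCCCCattgtaactccaCCCCag
Intron 6, chr17:75758373-75758402: aggCCCaCCCCttcaatatcctctctgcag
Intron 7, chr17:75758128-75758157: tgccactcaCCCCCagCCCgcctcttacag

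Over all 7 introns the windows held between 12 and 16 C, with a median of 13, against a median of 7 over 253548 introns of coding transcripts. The motif CCC, searched only on the strand that reads as the RNA, was present in 6 of the 7 windows and in 39.8% of all introns. Intron 7 had the most C, and 4.04% of all introns had as many or more. Intron 2 is retained in the annotated transcript GALK1-206, introns 3 and 4 in GALK1-208 and intron 6 in GALK1-203, whose values are given below. In the leading coding transcripts of the other genes the median was 9 C in GALT, 9 in GALM, 5 in UGP2 and 5 in GALK2. There CCC was present in 7 of 10 windows in GALT, 4 of 6 in GALM, 3 of 9 in UGP2 and 1 of 9 in GALK2. Intron 8 of GALK2 held 16 C, as many as intron 7 of GALK1. These counts describe the sequence alone, and binding of PCBP1 at these windows was not analysed here.

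**Figure D1:**
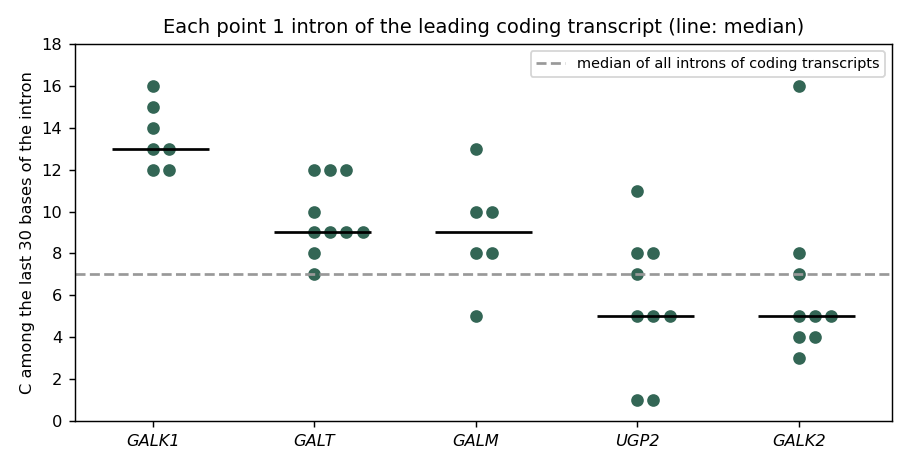
Number of C among the last 30 bases of each intron (y axis, bases) in the leading coding transcript of 5 genes (x axis). Each point is 1 intron, the line is the median of the gene, and the dashed line is the median of 7 over all introns of coding transcripts; the 7 introns of GALK1 lie at 12 to 16.

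The libraries held between 67066747 and 140522444 estimated counts. PCBP1 in shPCBP1 was at 18.1% of its level in shCtrl, with no overlap between groups. All 10 erythroid markers of K562 were present, the lowest being TAL1 at 36.6 to 43.9 TPM (a relative level scaled by transcript length), and CDKN2A, which K562 has lost, did not exceed 0.0400 TPM. Of markers of other cell types, CD3E, MS4A1 and KRT5 stayed at or under 0.255 TPM in every library. CD14 stayed at or under 0.450 TPM, while CD3D (46.5 to 73.7 TPM), LYZ (44.9 to 52.6 TPM) and EPCAM (26.7 to 38.1 TPM) were seen in all libraries. EPCAM fell by 0.19 on the log2 scale in shPCBP1, and the fibroblast collagens COL1A1 and COL1A2 fell by 0.31 and 0.43 (DESeq2 adjusted p 0.0349, 0.0179 and 0.00738). COL1A1 was at 3.44 to 6.61 TPM and COL1A2 at 0.938 to 1.76 TPM, and the part of these genes in the results was not tested.

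GALK1 (ENSG00000108479, chromosome 17, 75751594 to 75765236, hg38) was among the most reduced genes of the KD. Its normalized counts, which correct for library size, were 2288, 2244 and 2237 in shCtrl and 474, 609 and 671 in shPCBP1. The shCtrl libraries lay within a narrow band and all 3 shPCBP1 libraries lay far below it. The shPCBP1 mean came to 25.9% of the shCtrl mean, a log2 fold change of -1.95 (SE 0.106). In a bulk sample, fewer cells with the transcript and less of it per cell cannot be told apart.

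Before normalization the estimated counts of GALK1 were 3123, 2065 and 3407 in shCtrl and 422, 513 and 485 in shPCBP1. Per length, GALK1 averaged 25.1 ± 0.838 TPM in shCtrl and 7.44 ± 1.52 TPM in shPCBP1 (SD, n = 3). Of all 17095 genes tested, 0.989% were called lower at an adjusted p under 0.05, a log2 fold change below -1 and a mean normalized count over 10, and GALK1 was one of these by the choice made. Among the 85 called coding genes whose mean normalized count reached 100, its rank from the lowest was 4, after SYNC at -2.20 and before ITGA2B at -1.91 and USH1G at -1.89. The differences between GALK1, ITGA2B and USH1G were smaller than the SE of GALK1, so their order is not settled. The fold change kept its direction under each of 14 other settings, from -2.13 with coding transcripts only to -1.74 with transcript length offsets.

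**Figure D2:**
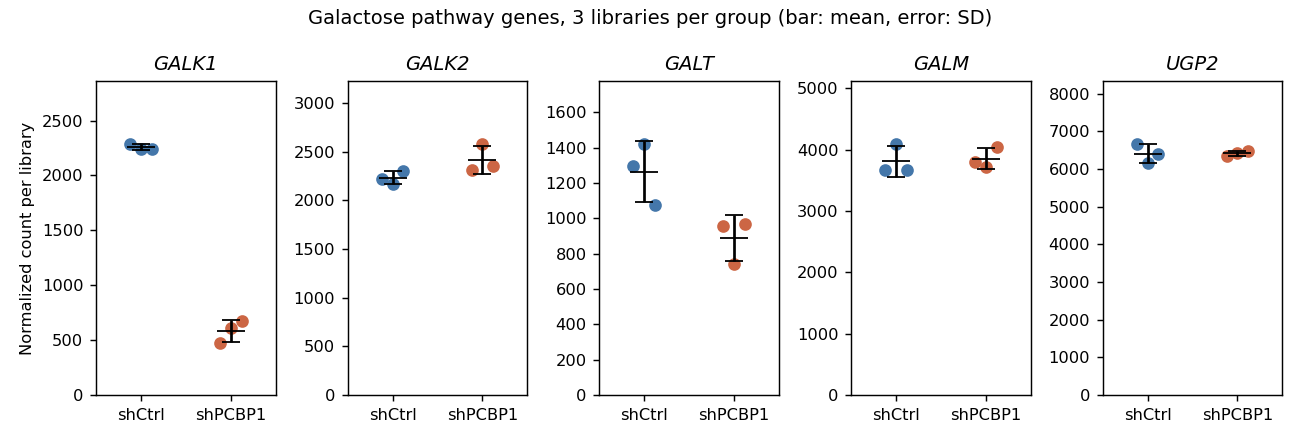
Normalized counts (y axis, 1 scale per gene, each starting at 0) of the 5 tested genes in the shCtrl and shPCBP1 libraries (x axis). Each point is 1 library, the bar is the mean and the error bar the SD; GALK1 dropped from about 2256 to 585, the GALT groups are apart by less, and GALM and UGP2 overlap.

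The annotation gives GALK1 9 transcripts, 3 of them coding. GALK1-205, of 1397 bases, carried most of the signal, with 21.2, 20.6 and 21.7 TPM in shCtrl and 3.73, 5.12 and 3.76 TPM in shPCBP1. Its share of all GALK1 TPM was 84.4% in shCtrl and 56.5% in shPCBP1. The other coding forms were low and varied between libraries of 1 group. GALK1-201, which reaches further downstream, had 1.23, 1.73 and 0.288 TPM in shCtrl and 0.150, 0.185 and 1.78 TPM in shPCBP1. GALK1-209 did not exceed 0.472 TPM in any library.

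Summed over the 3 coding forms, GALK1 had 22.7, 22.5 and 22.2 TPM in shCtrl and 3.88, 5.30 and 6.01 TPM in shPCBP1. The mean coding level was 22.5 ± 0.288 against 5.07 ± 1.08 TPM (SD, n = 3), 4.43-fold lower in shPCBP1. The 6 non-coding forms, which have a retained intron, no defined coding sequence or a premature stop that targets them for nonsense-mediated decay, summed to 1.57, 3.50 and 2.88 TPM in shCtrl and to 1.80, 3.04 and 2.29 TPM in shPCBP1. These groups overlapped, with means of 2.65 ± 0.984 and 2.38 ± 0.621 TPM (SD, n = 3), so the shPCBP1 mean was at 89.7% of the shCtrl mean.

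The coding forms therefore made up a smaller part of what was left of GALK1. Their share of GALK1 TPM was 93.5%, 86.5% and 88.5% in shCtrl and 68.3%, 63.6% and 72.4% in shPCBP1, a difference of -21.4 percentage points without overlap between groups. In estimated counts, in which the short non-coding forms weigh less, the difference was -9.53 points. The non-coding forms rested on only 52.9 to 115 estimated counts per library. How Salmon divided reads between forms that share exons adds an error that the files do not give.

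Among the forms with a retained intron, GALK1-203 had 0.655, 2.33 and 2.21 TPM in shCtrl and 0.996, 0.820 and 1.64 TPM in shPCBP1. GALK1-208, which keeps introns 3 and 4, had 0.688, 0.772 and 0.344 TPM in shCtrl and 0.653, 0.698 and 0.563 TPM in shPCBP1. GALK1-206, which keeps intron 2, stayed at or under 0.267 TPM. All 3 overlapped between the groups. The decay-targeted GALK1-204 was seen at 0.0618 to 0.231 TPM in shCtrl and was listed at 0 in all shPCBP1 libraries, and GALK1-202 had a value above 0 in 1 shCtrl library only. GALK1-207, without a defined coding sequence, was listed at 0 in 4 libraries and reached 1.39 TPM in shPCBP1 replicate 2 from 6 estimated counts.

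**Figure D3:**
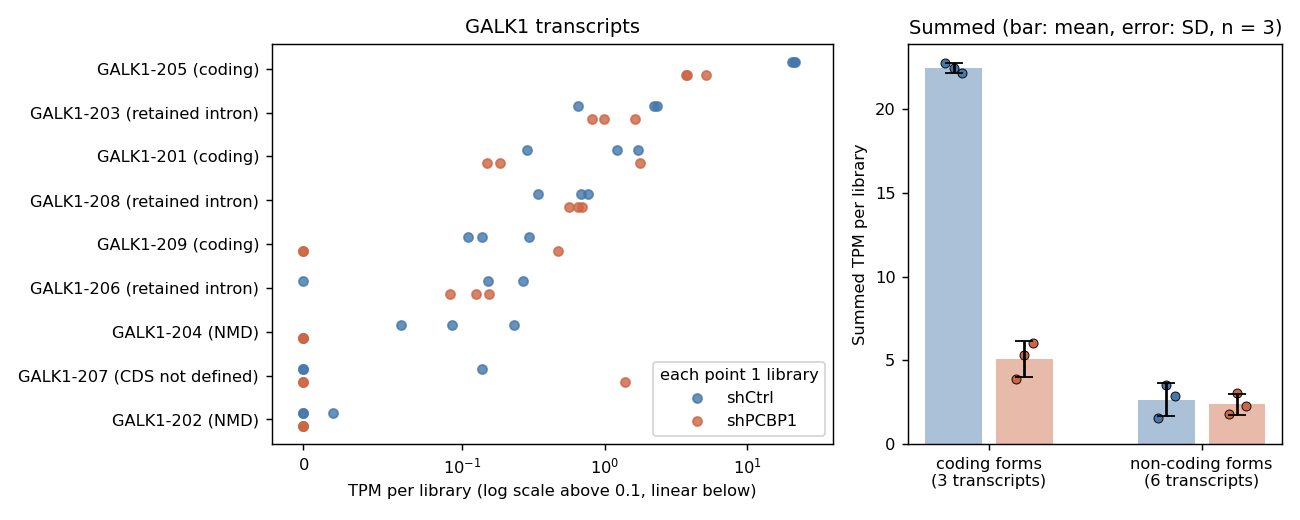
Left, TPM of each of the 9 GALK1 transcripts (x axis, log scale above 0.1 TPM and linear below) with 1 point per library. Right, TPM summed over coding and non-coding forms (y axis, bars from 0, mean and SD of 3 libraries); the coding sum is lower in all 3 shPCBP1 libraries and the non-coding sums overlap.

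GALK2 (ENSG00000156958, chromosome 15, 49155656 to 49367869) had 2223, 2171 and 2303 normalized counts in shCtrl and 2312, 2581 and 2351 in shPCBP1. All 3 shPCBP1 libraries were above the shCtrl libraries, by a narrow margin. The log2 fold change of 0.11 (SE 0.0695) did not pass (DESeq2 Wald test, p adjusted over all genes by Benjamini-Hochberg 0.226), nor did it under the 14 other settings, with adjusted p from 0.163 to 0.611. Per length, both kinases were at a like level in shCtrl, where the ratio of GALK1 to GALK2 TPM was 1.20, 1.29 and 1.25. In shPCBP1 the ratio was 0.291, 0.367 and 0.401, while GALK2 itself had 20.1 ± 0.104 TPM in shCtrl and 21.0 ± 1.62 TPM in shPCBP1 (SD, n = 3).

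The leading GALK2 transcript, GALK2-202, had 4.02, 10.2 and 8.47 TPM in shCtrl and 8.03, 3.78 and 7.21 TPM in shPCBP1. The estimates for GALK2-202 and for GALK2-212, a coding form of nearly the same span, traded places between libraries, with GALK2-212 listed at 0 in shCtrl replicate 2. Their levels are uncertain for that reason. The coding share of GALK2 was 68.2% ± 2.26 in shCtrl and 69.5% ± 3.09 in shPCBP1 (SD, n = 3), with overlapping groups. The other GALK2 forms averaging at least 1 TPM, GALK2-203, GALK2-208, GALK2-210, GALK2-215, GALK2-216 and GALK2-217, did not pass. On the opposite strand GALK2 overlaps FAM227B over 40908 bases, which had 4.64 to 6.45 TPM, and COPS2 over 6 bases, and neither passed.

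GALT (ENSG00000213930, chromosome 9, 34638133 to 34651035) was the other member that fell. Its normalized counts were 1295, 1423 and 1077 in shCtrl and 955, 741 and 970 in shPCBP1. Each shPCBP1 library lay below each shCtrl library, although the gap between the closest of them was smaller than the spread within either group. The level was 70.2% of shCtrl, a log2 fold change of -0.51 (DESeq2 adjusted p 0.000331, SE 0.124). GALT passed in each of the 14 other settings, with adjusted p from 2.60e-05 to 0.0171, and the fold change reached -1.05 with coding transcripts only. It was thus 1 of 4 members tested beside GALK1 that passed, while 13.5% of all genes passed lower and 17.7% higher.

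Most GALT signal came from forms that are not annotated as coding. Of 29 GALT transcripts only 2 are coding, and these made up 25.3%, 27.2% and 25.3% of GALT TPM in shCtrl and 22.3%, 16.5% and 14.7% in shPCBP1. The coding forms summed to 3.55, 4.68 and 3.16 TPM in shCtrl and to 2.27, 1.62 and 1.74 TPM in shPCBP1, all lower. The non-coding forms summed to 10.8 ± 1.60 TPM in shCtrl and 8.71 ± 1.18 TPM in shPCBP1 (SD, n = 3), and these groups overlapped. In GALT, as in GALK1, the coding level in shPCBP1 relative to shCtrl (49.4%) was below the non-coding one (80.8%), and that difference was not tested. ENSG00000258728, a coding gene that overlaps GALT over 4405 bases on the same strand, could share reads with it. It did not exceed 0.469 TPM in any library, but it had 39.9 to 201 estimated counts per library, against 624 to 1767 for GALT.

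GALT-201, the coding form highest in shCtrl, had 2.36, 2.48 and 2.08 TPM in shCtrl and 1.51, 1.10 and 0.394 TPM in shPCBP1. Its groups did not overlap, but the transcript did not pass over all transcripts (DESeq2 adjusted p 0.120, edgeR adjusted p 0.478). GALT-202, the other coding form, had overlapping groups (1.08 to 2.20 TPM in shCtrl and 0.523 to 1.35 TPM in shPCBP1). GALT-219, GALT-220 and GALT-222, with retained introns, and GALT-210, without a defined coding sequence, also averaged above 1 TPM and did not pass.

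GALM (ENSG00000143891, chromosome 2, 38666081 to 38741237) had 3664, 4094 and 3664 normalized counts in shCtrl and 3804, 3718 and 4037 in shPCBP1. The libraries of both groups were intermixed, with a log2 fold change of 0.02 (DESeq2 adjusted p 0.872, SE 0.0624). GALM-201 held 90.1% of GALM TPM in shCtrl and 86.4% in shPCBP1. A short form without a defined coding sequence, GALM-203, had 1.12, 1.61 and 1.32 TPM in shCtrl and 3.25, 3.20 and 2.50 TPM in shPCBP1, higher in all 3 libraries.

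Of 53 transcripts of GALK2, GALT, GALM and UGP2 with an adjusted p, GALM-203 and GALT-211 passed, against 9.27% of all 105847 transcripts. GALM-203 had a log2 fold change of 1.20 (DESeq2 adjusted p 0.00325, SE 0.316), which was lost with edgeR (adjusted p 0.391), without shPCBP1 replicate 1 (DESeq2 adjusted p 0.0561) and without shPCBP1 replicate 2 (DESeq2 adjusted p 0.0550). GALT-211, with a retained intron, stood at 0 throughout shCtrl and at 0.0462, 0.545 and 0.710 TPM in shPCBP1, and edgeR did not pass it (adjusted p 0.195). With edgeR 0 of the transcripts of these 4 genes passed and 4 had an unadjusted p under 0.05. On simulated libraries the DESeq2 test passed many transcripts that had not been changed, which edgeR rarely did, so calls of single transcripts are weak here. Of 200 transcripts changed 3-fold there, edgeR recovered 34 and DESeq2 104, and of 200 changed 1.5-fold, 0 and 40. A transcript that edgeR did not pass may therefore still differ.

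UGP2 (ENSG00000169764, chromosome 2, 63840952 to 63891562) was the most abundant of the 6 genes per length, at 44.2 ± 1.29 TPM in shCtrl and 44.6 ± 2.06 TPM in shPCBP1 (SD, n = 3). Its normalized counts were 6667, 6146 and 6407 in shCtrl and 6343, 6413 and 6480 in shPCBP1. The groups overlapped throughout, with a log2 fold change of 0.00 (DESeq2 adjusted p 0.996, SE 0.0475). UGP2-202, its leading coding form, held 80.8% of UGP2 TPM in shCtrl and 81.1% in shPCBP1. Its other coding form above 1 TPM, UGP2-201, averaged 3.34 TPM in shCtrl and 2.83 TPM in shPCBP1 and did not pass.

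PGM1 (ENSG00000079739, chromosome 1, 63593411 to 63660245) was at the limit of detection. It had 7, 0 and 2 estimated counts in shCtrl and 0 in every shPCBP1 library, which is below the minimum of 10 summed counts, so it was not tested and no fold was computed. A count of 0 allows up to 3 counts in a library. ITGB3BP, which overlaps PGM1 on the opposite strand over 311 bases, had 66.3 to 73.5 TPM and did not pass. Another gene of the phosphoglucomutase family, PGM2, had a mean normalized count of 7071 ± 79.9 in shCtrl against 7043 ± 166 in shPCBP1 (SD, n = 3), with a log2 fold change of -0.01 (DESeq2 adjusted p 0.945).

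In order of TPM in shCtrl the 6 genes were UGP2, GALK1, GALM, GALK2, GALT and PGM1. GALK1 and GALM differed by less than the spread of GALM. In shPCBP1 GALK1 ranked below GALT, with 7.44 ± 1.52 against 10.6 ± 1.07 TPM over all forms (SD, n = 3). In coding forms alone GALK1 stayed above GALT in shPCBP1, with 5.07 ± 1.08 against 1.88 ± 0.343 TPM (SD, n = 3).

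The rest of the pathway was read from a list of 52 genes in 8 groups, which includes the members. Of these, 46 were tested and 13 passed, 4 higher and 9 lower. That is 28.3%, against 31.2% of all genes tested, and without GALK1 it is 12 of 45. The median log2 fold change of the list was -0.02, and over all genes it was 0.00. With coding genes only, 15 passed, 3 higher and 12 lower, and with coding transcripts only 16 passed, 2 higher and 14 lower. Of all genes that passed, 43.3% were lower in the main fit, 47.9% with coding genes only and 47.9% with coding transcripts only. The direction of the list as a whole was not tested.

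Both genes of the galactitol route, by which unphosphorylated galactose is reduced, did not pass. AKR1B1, the aldose reductase, had a log2 fold change of 0.12 (DESeq2 adjusted p 0.126), and SORD, sorbitol dehydrogenase, one of 0.06 (DESeq2 adjusted p 0.496).

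Among genes of UDP-glucose and hexose phosphates, PGM2L1, which makes glucose bisphosphate, fell and HK2, a hexokinase, rose. PGM2L1 had 1071, 1168 and 1146 normalized counts in shCtrl and 643, 696 and 767 in shPCBP1, a log2 fold change of -0.69 (DESeq2 adjusted p 1.27e-09, SE 0.104). HK2 had 8615, 8096 and 7526 in shCtrl and 10818, 9489 and 9527 in shPCBP1, a log2 fold change of 0.30 (DESeq2 adjusted p 5.44e-06, SE 0.0594). Neither gene had overlapping groups. HK1, the more abundant hexokinase, and GPI did not pass.

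Among users of UDP-galactose and its carrier, 2 of 9 tested genes passed (22.2%, against 31.2% of all genes), both lower. B4GALT1, a Golgi galactosyltransferase, had 4309, 4362 and 4549 normalized counts in shCtrl and 3453, 3304 and 3633 in shPCBP1, a log2 fold change of -0.35 (DESeq2 adjusted p 2.02e-08, SE 0.0569). B4GALT7, which adds galactose to the linker of proteoglycans, had 1163, 1062 and 1098 in shCtrl and 843, 845 and 848 in shPCBP1, a log2 fold change of -0.39 (DESeq2 adjusted p 0.000262, SE 0.0942). The carrier of UDP-galactose into the Golgi, SLC35A2, had a log2 fold change of -0.10 and did not pass (DESeq2 adjusted p 0.173).

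Among the hexose transporters, 4 of 7 were tested. SLC2A1, the main glucose transporter of red cells, rose by 0.26 on the log2 scale (DESeq2 adjusted p 0.0405). SLC2A1 lost its call with coding transcripts only (DESeq2 adjusted p 0.209), without shCtrl replicate 1 (0.151), without shPCBP1 replicate 1 (0.179) and without shPCBP1 replicate 3 (0.0586). SLC2A4, the insulin-responsive transporter, had 397, 437 and 297 normalized counts in shCtrl and 172, 228 and 288 in shPCBP1, a log2 fold change of -0.72 (DESeq2 adjusted p 0.00376, SE 0.212). SLC2A4 lost its call with length offsets (DESeq2 adjusted p 0.0576), coding transcripts only (0.323), without shCtrl replicate 2 (0.0625) and without shPCBP1 replicate 1 (0.0526).

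In the branch of N-acetyl sugars 3 of 10 tested genes passed, a share close to the 31.2% of all genes. GNPDA1, glucosamine phosphate deaminase, rose by 0.28 on the log2 scale, and UAP1, which makes UDP-N-acetylglucosamine, and AMDHD2, a deacetylase, fell by 0.22 and 0.23. GLB1, the lysosomal beta-galactosidase, rose by 0.13, and GBE1, the glycogen branching enzyme and 1 of 8 users of UDP-glucose tested, fell by 0.28. All of these changes were smaller than that of GALT. UAP1 was at 0.26, above shCtrl, with transcript length offsets (DESeq2 adjusted p 0.564). GLB1 passed narrowly (DESeq2 adjusted p 0.0442) and reached an adjusted p of 0.436 in the other settings.

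**Figure D4:**
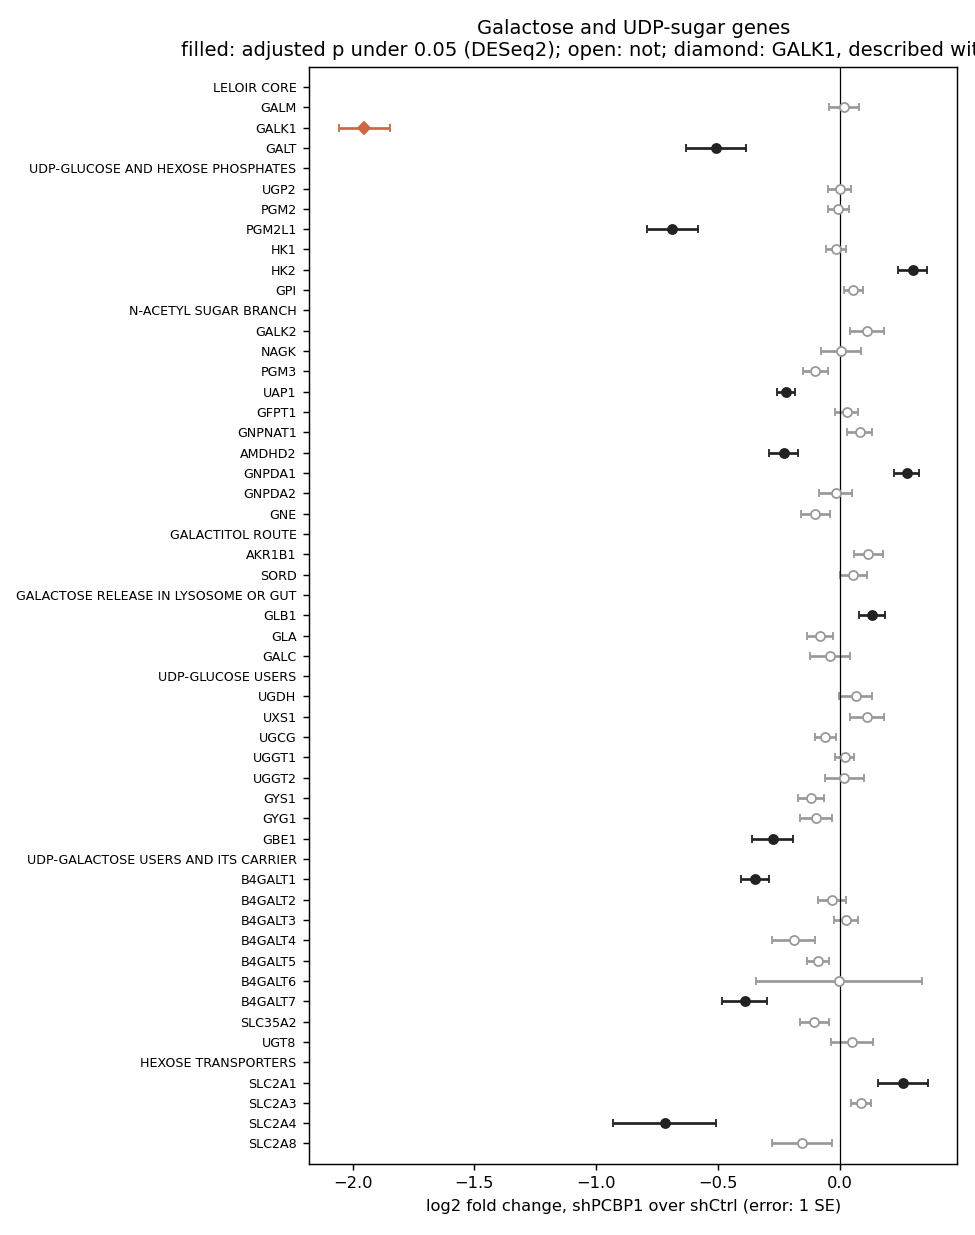
Log2 fold change of shPCBP1 over shCtrl with 1 SE (x axis) for tested genes of galactose and UDP-sugar metabolism (y axis, by group). Filled points have a DESeq2 adjusted p under 0.05, open points do not, and the diamond is GALK1, which at -1.95 lies far from the other genes, the next lowest being SLC2A4 at -0.72.

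The genes around GALK1 on chromosome 17 were examined to see whether the fall extended beyond it. Within 500 kb there were 33 tested genes, of which 13 passed (39.4%, against 31.2% of all genes), 6 higher and 7 lower. Their log2 fold changes ran from -0.90 to 0.21, with a median of -0.11, and 0 of 33 lay below -1. In 25 of 33 the change was under 0.3 in size. Within 1 Mb there were 66 tested genes, with log2 fold changes from -1.89 to 0.74, and 2 of them, named after their values were seen, lay below -1. USH1G, whose fall was close to that of GALK1, starts 835.5 kb from it, and FDXR, a ferredoxin reductase of mitochondria, starts 889.1 kb from it with a log2 fold change of -1.13 (DESeq2 adjusted p 2.03e-99). The closest tested genes on either side, ITGB4 (log2 fold change -0.24, DESeq2 adjusted p 0.632) and H3-3B (0.05, DESeq2 adjusted p 0.431), did not pass.

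Among the neighbours that passed lower were UNC13D, a regulator of granule exocytosis (log2 fold change -0.39), RNF157, a ubiquitin ligase (-0.54), LLGL2, a polarity protein (-0.32), RECQL5, a DNA helicase (-0.30), MIF4GD (-0.21) and ENSG00000279382 (-0.90). UNC13D had the lowest adjusted p of them (8.22e-27, DESeq2). Those that passed higher were SAP30BP (0.21), MRPS7 (0.20), MRPL38 (0.17), WBP2 (0.14), SRP68 (0.13) and the adaptor GRB2 (0.11). MRPS7 and MRPL38 encode mitochondrial ribosomal proteins, and SRP68 a part of the signal recognition particle. Of the 13, 10 overlap another annotated gene and 3 do so on the same strand, so their counts may include reads of a partner.

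ITGB4, an integrin subunit, overlaps the downstream end of the GALK1 locus on the opposite strand over 6225 bases, the stretch reached by GALK1-201 and GALK1-207. It had 58.0 to 162 estimated counts and 0.150 to 1.66 TPM per library. Whether reads were counted by strand is not given in the sources used here, so low counts of ITGB4 and of these GALK1 forms may be mixed. GALK1-205 ends outside the stretch.

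**Figure D5:**
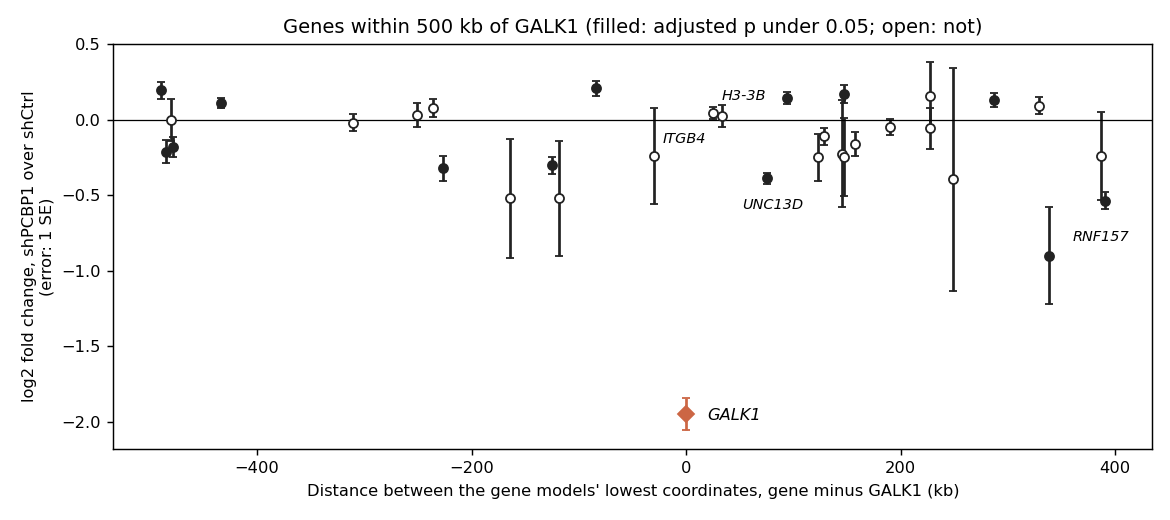
Log2 fold change of shPCBP1 over shCtrl with 1 SE (y axis) for the 33 tested genes within 500 kb of GALK1, by distance in kb (x axis). Filled points have a DESeq2 adjusted p under 0.05 and open points do not; GALK1, the diamond at -1.95, lies below all neighbours, which run from -0.90 to 0.21.

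The genes whose values over the 6 libraries were most like those of GALK1 were found among 11623 coding genes whose mean normalized count reached 100, by the Euclidean distance between log2 values centred on each gene's mean. Among the 5 closest were ACRBP at a distance of 0.259, with 703, 816 and 746 normalized counts in shCtrl and 166, 204 and 260.2 in shPCBP1, ITGA2B, the platelet integrin alpha chain, at 0.417, BCKDHA, a subunit of the branched-chain ketoacid dehydrogenase, at 0.497 and SELENBP1 at 0.549. In ACRBP, ITGA2B and BCKDHA, as in GALK1, shPCBP1 replicate 1 was the lowest library and replicate 3 the highest of its group. In SELENBP1 shPCBP1 replicate 1 was also the lowest, but replicate 2 was the highest. The genes were picked by these same values, so a shared order of libraries follows in part from the choice. The likeness rests mostly on the difference between the groups, and these genes lie on several chromosomes.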

How the data were processed

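Poly-A RNA of 6 K562 libraries was quantified per transcript by the authors with Salmon 1.10.2, on hg38 per the labels. The annotation release and the use of strand are not given in the sources used here. The deposited values were estimated counts, not normalized and not always whole, TPM, which the authors' software scaled by effective length, and the effective length itself in bases, a value of another kind that served only for length offsets. The labels also name DESeq2 as 3.19, the authors' own entry.

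Transcripts were matched by ID to GENCODE 44. Of 252045 transcripts, 433 were unmatched and held 0.136% to 0.147% of counts. Rounded gene sums of these counts were fitted with DESeq2 1.42.0 in R 4.3.3 for the 28848 genes reaching 10 counts in all. The model held group alone, with size factors by median of ratios and a two-sided Wald test, and 17095 received an adjusted p. Passing means an adjusted p under 0.05. Called means, in addition, a mean normalized count over 10 and a log2 fold change beyond 1 in either direction. Transcripts were tested likewise. Tables were joined with Python 3.11.15.

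The members and lists were chosen with earlier results of these data known. Named were the members, passing list genes with an absolute log2 fold change over 0.3 (up to 12), passing neighbours of GALK1, genes overlapping a member, member transcripts averaging at least 1 TPM, all GALK1 transcripts, the 5 genes most like GALK1, and PCBP1. GALT-211 and the passing list genes with smaller changes were added after their values were seen. Overlapping pseudogenes, short RNAs and low non-coding genes are not named one by one, and some genes and 1 sequence that these rules select are not reported here.

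Libraries of a group differed by more than sampling noise (chi-square per degree of freedom 6.48 to 16.4). Alternatives were edgeR 4.0.16, TMM factors, count filters, length offsets, coding transcripts or genes only, a replicate block, other windows and leaving out each library. The gene and transcript tests were tested on simulated data.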

Additional observations from a re-analysis of the deposited data

How the results depend on the processing

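GALK1 stayed lower in all 14 other settings (log2 fold change -2.06 to -1.82 without 1 library, -1.74 with transcript length offsets), and GALT stayed past the threshold in all 14. The count of called genes (235) was 148 with the replicate block, 14 with a test against a change of 1 on the log2 scale, and 140 to 249 without 1 library. Genes passing (5332) ranged from 4175 to 5145 without 1 library, and the pathway list from 11 to 13, with 16 for coding transcripts only. Passing neighbours of GALK1 (13) were 6 within 250 kb and 26 within 1 Mb, where more or fewer genes are counted and the lowest log2 fold change is -1.89, and 8 to 12 without 1 library. Passing transcripts (9811) were 683 with edgeR and 9242 to 10711 without 1 library, and the cause was not tested. The GALK1 coding share differed by -9.53 points in estimated counts and by -23.6 to -19.2 points without 1 library.

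UAP1 was at 0.258 with transcript length offsets. Genes with a fold change near 0 changed sign. UGP2 was at -0.0138 with edgeR, -0.0140 with TMM factors, -0.0408 with coding transcripts and -0.0216 with coding genes only, and -0.0272 to 0.0303 without 1 library. GALM was at -0.0264 with coding transcripts, -0.00448 with coding genes only, and -0.0168 to 0.0726 without 1 library. Of the neighbours, MRPS7, MIF4GD, MRPL38, SRP68, GRB2, LLGL2, RECQL5 and ENSG00000279382 each did not pass in at least 1 setting, with highest adjusted p from 0.0607 (RECQL5) to 0.496 (GRB2), while UNC13D, RNF157, WBP2 and SAP30BP passed in all settings run. Without 1 library ENSG00000279382 ran from -1.37 to -0.69.

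Replicate numbers are shared between the groups, but libraries of one number did not move together (correlation of deviations 0.0387, 0.016 and -0.0331 over 16153 genes), so they were not taken as pairs. With the replicate block 12 neighbours, 12 list genes and 9905 transcripts passed, and MIF4GD (DESeq2 adjusted p 0.0877), GLB1 (DESeq2 adjusted p 0.0749) and GALM-203 (DESeq2 adjusted p 0.0574) lost their calls. The block changed no other call of the pathway list or of the GALK1 neighbours within 500 kb. Depth limits the non-coding GALK1 forms, with at most 115 counts per library, and PGM1.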

Other observations

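Around the other members, 5 of 23 tested genes within 500 kb of GALT passed, all lower. IL11RA (log2 fold change -0.72, DESeq2 adjusted p 0.000461) and MYORG (-0.54, DESeq2 adjusted p 0.00228) were among them, named after their values were seen. Both had a lower fold change than GALT (-0.51), and the differences from GALT were not tested. Within the same distance 2 of 7 passed around GALK2 and 2 of 4 around UGP2, also all lower. Around GALM 0 of 9 passed and around PGM1 0 of 6 with DESeq2 and with edgeR, and 0 of these had an unadjusted p under 0.05 with either. Within 1 Mb the direction was mixed, with 2 passing higher and 5 lower around GALT, 1 and 2 around GALK2, and 2 and 2 around UGP2. Around GALM 1 passed within 1 Mb, which was higher. Over all genes tested 31.2% passed, 17.7% higher and 13.5% lower.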
